A study of Mus musculus with 6 samples.

Results

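The collagen genes of mouse were followed in gastruloids, aggregates of embryonic stem cells that elongate and form tissues along a body axis in culture. Members were all genes of the deposited count table whose Ensembl identifier belongs to a protein-coding mouse gene with a symbol made of Col, a number, a and a number. The rule found 44 genes among the 35565 rows of the table, and it used no measured value. By textbook class, 11 are fibrillar collagens, 8 are basement membrane collagens and 25 are other collagens.

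Collagens are extracellular matrix proteins whose chains wind around each other into a stiff rod. Fibrillar collagens are cut by proteases outside the cell and pack into fibrils. Type IV collagens form the sheet-like network of basement membranes, under epithelia and around vessels, and further families sit on the surface of fibrils, form beaded filaments or stay anchored in the plasma membrane. In the early embryo, basement membranes separate the germ layers, and the notochord and later the sclerotome are known sources of cartilage-type fibrillar collagens.

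The study compared gastruloids in which the ultraconserved long non-coding RNA *T-UCstem1* was depleted with control gastruloids. Both groups were grown from TBV2 embryonic stem cells of the 129/SvP background, treated with the WNT pathway activator CHIR99021 and collected at day 5. Control (NT) cells are described by the study as non-targeting, although the sample labels give their genotype as WT, and KD-1 is an embryonic stem cell clone with *T-UCstem1* knocked down. The level of *T-UCstem1* was not analysed here, so the knockdown was not checked in these libraries. Each group had 3 libraries, described as biological replicates, but all KD-1 libraries come from 1 clone, so a property of the clone and an effect of the knockdown cannot be told apart. RNA came from whole gastruloids, and in bulk RNA fewer cells of a type and less RNA per cell cannot be told apart.

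Library totals ran from 20982249 to 85561026 counts. The unit of level is CPM, the count divided by the library size after TMM normalization, which takes library composition into account, and genes were compared with each other only as CPM per kb of exon. Since the columns could not be tied to replicate numbers, libraries are given in order of depth, lowest, middle and highest. The middle-depth Control (NT) library stood apart, with a chi-square per degree of freedom over genes of 36.3 and 36.5 against the other Control (NT) libraries, which differed from each other by 15.3, while the KD-1 pairs lay between 4.85 and 11.0. Results that rest on that library are given with and without it.

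More collagen genes were called lower than higher in KD-1. Of the 44 genes, 30 had enough counts to be tested, and 15 were called lower and 4 higher, by edgeR's quasi-likelihood test (adjusted p under 0.05 and more than 1.5-fold in either direction), while 11 were not called. Over all 15110 genes tested, 37.7% were called, 18.1% lower and 19.7% higher, so that calling a gene was common in this comparison. The median log2 fold change, KD-1 over Control (NT), was -0.87 over the tested collagens and -0.01 over all genes tested. For 22 of the 30 tested collagens the libraries of the groups did not overlap, a share near the 70.6% of all genes tested. An adjusted p under 0.05 alone was reached by 22 of the 30 tested collagens and by 63.5% of all genes tested. The falls ran from -0.68 to -5.40 on the log2 scale, with 6 genes down by over 8-fold, and the rises from 0.73 to 1.39. Without the middle-depth Control (NT) library the counts were 15 lower and 2 higher.

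**Figure D1:**
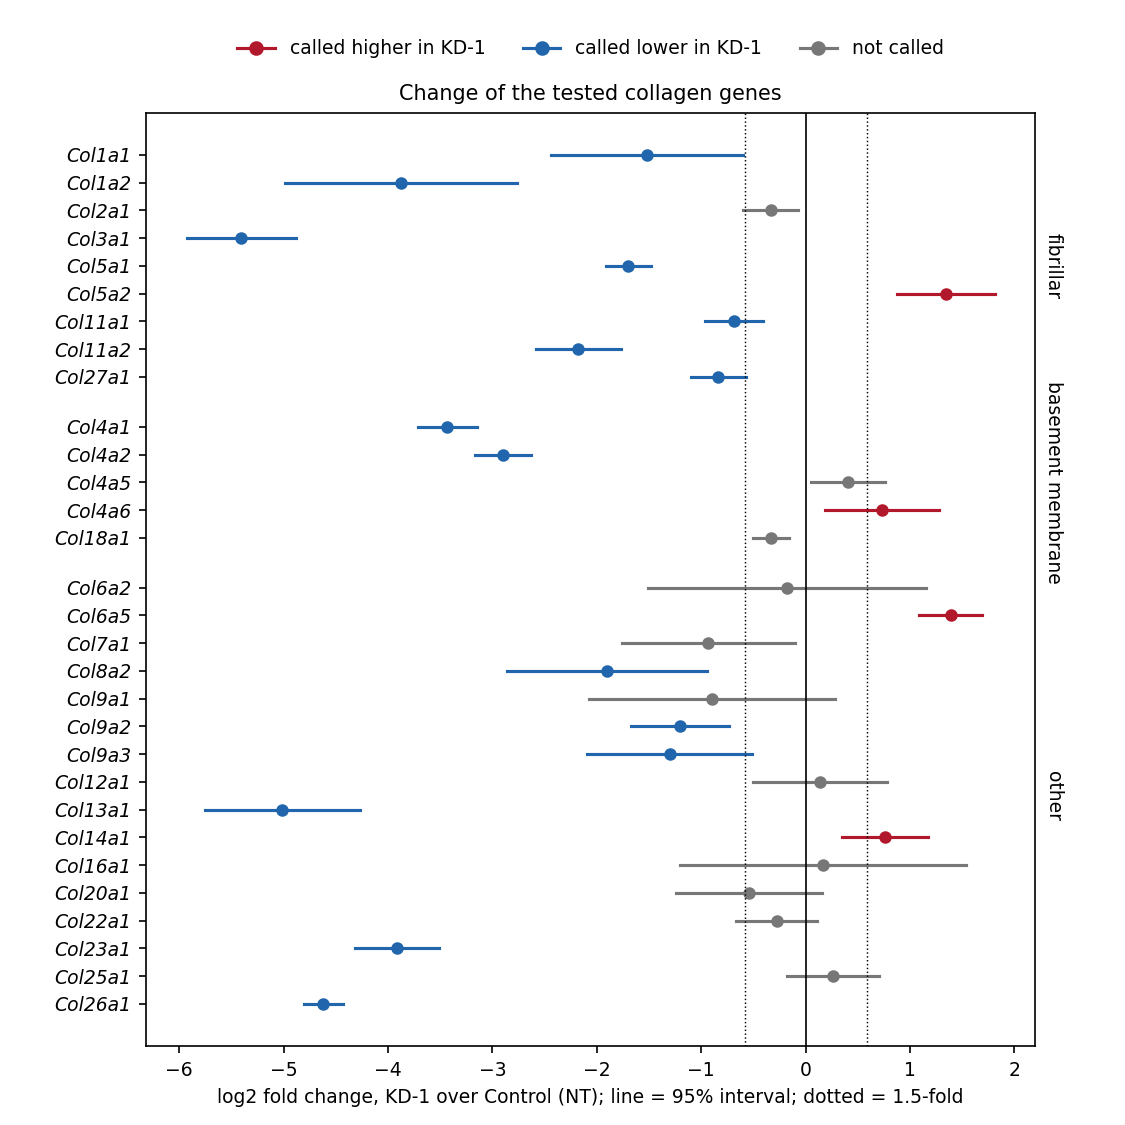
Log2 fold changes of the 30 tested collagen genes, KD-1 over Control (NT), grouped by class, with lines for the 95% interval and colours for the call. Points left of 0 are lower in KD-1, where 15 genes were called, and the falls of *Col3a1*, *Col13a1* and *Col26a1* lie furthest out.

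The fibrillar class held 7 genes called lower, 1 called higher and 1 not called, among 9 tested, with a median log2 fold change of -1.52. Basement membrane collagens split, with 2 called lower, 1 called higher and 2 not called among 5 tested and a median of -0.33. The other collagens had 6 called lower, 2 called higher and 8 not called among 16 tested, with a median of -0.72. Over all genes tested, 18.1% were called lower and 19.7% higher. Groups did not overlap for 9 of 9 tested fibrillar genes, 5 of 5 basement membrane genes and 8 of 16 others, against 70.6% of all genes tested.

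The summed level of all 44 collagens was 51.7, 62.4 and 57.5 CPM per kb in Control (NT) and 26.4, 26.8 and 26.9 CPM per kb in KD-1. Every KD-1 library lay below every Control (NT) library, as also held for each class sum. Fibrillar collagens summed to 11.8 ± 1.20 (SD, n = 3) against 7.05 ± 0.174 CPM per kb. Basement membrane collagens gave 32.4 ± 3.62 against 15.1 ± 0.458, and the other collagens 13.04 ± 0.6671 against 4.56 ± 0.135 CPM per kb. With the longest annotated transcript as length instead of all exons, the sums were 18.5 against 11.7 (fibrillar), 35.4 against 16.5 (basement membrane) and 24.1 against 5.59 CPM per kb (other). The share of basement membrane genes in the collagen sum was 56.6 ± 1.058% in Control (NT) and 56.5 ± 1.23% in KD-1, or 45.3 and 48.8% with the longest transcript. These sums are descriptions with no test.

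**Figure D2:**
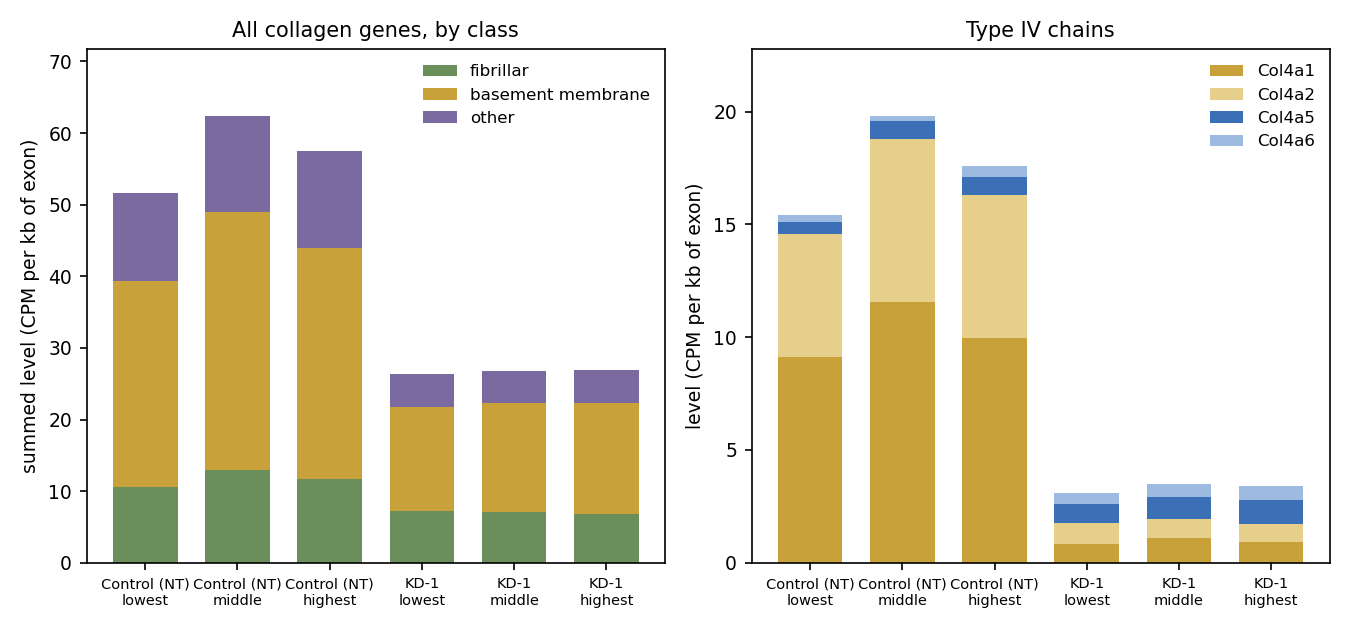
Summed levels of the collagen classes in CPM per kb of exon, as stacked bars with a bar for each library, beside the type IV chains in the same unit, with libraries named by depth. For all 44 collagens, the KD-1 bars reach 26.4 to 26.9 and the Control (NT) bars 51.7 to 62.4 CPM per kb. *Col4a5* and *Col4a6* make up 5.13 to 7.24% of the type IV sum in Control (NT) and 43.1 to 48.6% in KD-1. That sum includes *Col4a3* and *Col4a4*, which are not drawn.

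The order of the genes within the sum also differed. Per kb, the 5 highest levels in Control (NT) were those of *Col18a1* at 14.7 ± 1.39, *Col4a1* at 10.2 ± 1.25, *Col4a2* at 6.32 ± 0.881, *Col2a1* at 5.86 ± 1.04 and *Col26a1* at 5.02 ± 0.128 CPM per kb. Among these, *Col4a2* differed from *Col2a1*, and *Col2a1* from *Col26a1*, by less than the SD of *Col2a1*. In KD-1 they were *Col18a1* at 11.7 ± 0.283, *Col2a1* at 4.65 ± 0.152, *Col14a1* at 1.86 ± 0.113, *Col4a5* at 0.964 ± 0.106 and *Col4a1* at 0.950 ± 0.123 CPM per kb, the last pair within their spread. *Col18a1* made up 25.7 ± 0.0597% of the collagen sum in Control (NT) and 43.9 ± 0.677% in KD-1, although its own level was no higher in KD-1. The order depended on the length used. With the longest transcript, the 5 highest in Control (NT) were *Col18a1* (15.6), *Col26a1* (14.6), *Col4a1* (11.5), *Col2a1* (10.5) and *Col4a2* (6.72 CPM per kb), and in KD-1 *Col11a1* (1.29) stood in the place of *Col4a1* (1.07 CPM per kb). *Col18a1* then made up 20.05 and 36.8% of the sum.

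Promoter sequence is shown for the genes with the furthest falls and rises for which a reference window was at hand, and for the *Col4a6* and *Col4a5* pair, whose starts face each other. RefSeq promoter windows of the GRCm38.p6 build matched 35 of the 44 genes by symbol, as 38 windows, and each was placed once in GRCm39 by exact match. The bases before the start that lie outside annotated exons are printed from 5′ to 3′ on the gene's strand, with GRCm39 coordinates. Capitals mark matches, on either strand, to TATAAA, known as the TATA box, to CCAAT, bound by factor NF-Y, to GGGCGG, known as the GC box, and to CTTTGA, the core of the TCF/LEF motif bound by WNT effectors.
Col3a1, chr1:45350448-45350697, plus strand: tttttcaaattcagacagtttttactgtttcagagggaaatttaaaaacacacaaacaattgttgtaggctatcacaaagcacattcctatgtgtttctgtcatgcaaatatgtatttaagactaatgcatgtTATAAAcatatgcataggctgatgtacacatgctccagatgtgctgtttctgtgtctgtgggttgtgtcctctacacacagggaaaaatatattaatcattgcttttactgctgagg
Col13a1, chr10:61814941-61815137, minus strand: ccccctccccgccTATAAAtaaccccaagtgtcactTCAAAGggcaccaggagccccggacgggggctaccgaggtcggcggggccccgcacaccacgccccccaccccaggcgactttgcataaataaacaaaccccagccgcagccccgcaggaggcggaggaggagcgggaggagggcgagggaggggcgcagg
Col6a5, chr9:105837859-105838092, minus strand: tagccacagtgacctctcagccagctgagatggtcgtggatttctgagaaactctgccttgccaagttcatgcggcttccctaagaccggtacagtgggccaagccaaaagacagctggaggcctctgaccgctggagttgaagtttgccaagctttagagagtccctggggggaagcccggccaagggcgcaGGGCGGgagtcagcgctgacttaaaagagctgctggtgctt
Col4a6, chrX:140257073-140257322, minus strand: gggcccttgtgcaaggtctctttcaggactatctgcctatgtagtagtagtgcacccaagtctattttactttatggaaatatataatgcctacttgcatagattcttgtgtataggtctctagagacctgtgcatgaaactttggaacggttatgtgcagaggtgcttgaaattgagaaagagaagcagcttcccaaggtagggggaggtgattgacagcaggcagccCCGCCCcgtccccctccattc
Col4a5, chrX:140258165-140258353, plus strand: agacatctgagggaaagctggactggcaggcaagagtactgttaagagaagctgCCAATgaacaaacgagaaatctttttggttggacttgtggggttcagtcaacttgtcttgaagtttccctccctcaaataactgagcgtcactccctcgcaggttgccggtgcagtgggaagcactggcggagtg

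*Col3a1* and *Col13a1*, which both fell, each held TATAAA, and *Col13a1* also held the TCF/LEF core on the opposite strand. *Col4a6* and *Col6a5*, which were called higher, each held a GC box and no TATAAA. The same held for the windows of *Col1a2*, *Col4a2*, *Col5a1*, *Col8a2*, *Col9a2*, *Col11a1*, *Col23a1* and *Col27a1*, which were called lower. Of the remaining genes called lower with a window, *Col11a2* held both motifs and *Col4a1* neither. Over the 250 bases before the start, TATAAA was in 5 of the 38 collagen windows and in 12.4% of 32851 windows of all genes. GGGCGG was in 22 of 38 against 32.7%, CCAAT in 13 of 38 against 33.8% and CTTTGA in 9 of 38 against 13.8%. Matches can overlap, and those of different motifs or copies shared 4 bases over all collagen windows. Collagen windows had a median GC content of 59.0%, against 52.4% over all windows. Exon bases were not removed for these counts and GC values. Some windows, such as those of *Col4a1*, *Col4a2* and *Col15a1*, lie wholly within annotated exons. A match describes the letters only.

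The chains of type III and type I collagen were at very low levels in KD-1, and those of type I were low in Control (NT) as well. *Col3a1* (ENSMUSG00000026043, chr1:45350698-45395840), which encodes the chain of type III collagen of soft connective tissue, had 5.06, 5.68 and 5.56 CPM in Control (NT) and 0.119, 0.0919 and 0.150 CPM in KD-1. The Control (NT) libraries lay close together, and the KD-1 libraries rested on 5, 4 and 13 counts. The change was -5.40 on the log2 scale (SE 0.23, edgeR adjusted p = 3.1e-07), 42.4-fold lower.

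*Col1a2* (ENSMUSG00000029661, chr6:4504814-4541555), a chain of type I collagen of bone, skin and tendon, had 0.820, 1.21 and 1.90 CPM in Control (NT) and 0.0716, 0.138 and 0.0691 CPM in KD-1. All KD-1 values were under all Control (NT) values, which themselves spread over more than their lowest value. Its log2 fold change was -3.87 (SE 0.49, edgeR adjusted p = 0.00016). *Col1a1*, the partner chain of type I, stayed under 1 CPM in every library, with 9, 23 and 30 counts against 10, 7 and 16 in the KD-1 libraries, and was called lower at -1.52 (SE 0.40, edgeR adjusted p = 0.0096). That call was lost when the highest-depth KD-1 library (adjusted p = 0.062) or the middle-depth KD-1 library (adjusted p = 0.06) was left out.

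The chains of type V collagen, which join type I in mixed fibrils and limit their width, moved in opposite directions. *Col5a1* (ENSMUSG00000026837, chr2:27776397-27929526) had 21.8, 18.3 and 20.6 CPM in Control (NT) and 6.23, 6.30 and 6.18 CPM in KD-1. It was lower in every KD-1 library, by -1.70 (SE 0.09, edgeR adjusted p = 1.4e-06). *Col5a2* (ENSMUSG00000026042, chr1:45412554-45542442), whose product assembles with that of *Col5a1*, had 0.772, 1.095 and 1.01 CPM in Control (NT) and 2.55, 2.48 and 2.39 CPM in KD-1. It was higher in every KD-1 library, by 1.34 (SE 0.21, edgeR adjusted p = 0.00051). The ratio of *Col5a1* to *Col5a2* per kb was 27.9 ± 7.60 in Control (NT) and 3.23 ± 0.0934 in KD-1. From the group means with the longest transcript as length, it was 18.9 and 2.25.

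*Col5a2* lies end to end with *Col3a1* on chromosome 1, 16713 bp apart, so neighbouring genes showed a 42.4-fold fall and a 2.53-fold rise. Over the 871 genes tested on chromosome 1 the median log2 fold change was 0.49 and 40.2% were called higher, and the part of this in the *Col5a2* value was not tested.

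Collagens of the cartilage type changed by different amounts, and the gene with the highest level among them was not called. *Col2a1* (ENSMUSG00000022483, chr15:97873483-97902689), the chain of type II collagen, made early by notochord and later by cartilage, had 45.7, 65.0 and 53.6 CPM in Control (NT) and 45.2, 42.8 and 42.7 CPM in KD-1. The groups lay next to each other without overlap, and the log2 fold change of -0.33 (95% interval -0.60 to -0.07, edgeR adjusted p = 0.031) stayed inside the fold threshold.

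*Col11a1* (ENSMUSG00000027966, chr3:113824134-114014367), a partner of type II in thin fibrils, had 14.3, 18.6 and 15.1 CPM in Control (NT) and 9.35, 11.0 and 9.58 CPM in KD-1. It was lower by -0.68 (SE 0.12, edgeR adjusted p = 0.0012), and without the middle-depth Control (NT) library the change of -0.57 no longer reached 1.5-fold. *Col11a2* (ENSMUSG00000024330, chr17:34258108-34285664), the other type XI gene, had 4.87, 6.39 and 5.34 CPM in Control (NT) and 1.22, 1.40 and 1.09 CPM in KD-1. Here the fall was larger, -2.18 (SE 0.18, edgeR adjusted p = 1.4e-05), and the ratio of *Col11a1* to *Col11a2* per kb was 1.68 ± 0.0330 in Control (NT) and 4.71 ± 0.333 in KD-1, or 2.57 and 7.17 with the longest transcript as length. *Col27a1* (ENSMUSG00000045672, chr4:63132241-63253228), a fibrillar collagen of developing cartilage, had 9.84, 10.5 and 9.33 CPM in Control (NT) and 6.11, 5.45 and 5.10 CPM in KD-1. All of its KD-1 libraries were lower, by -0.83 (SE 0.11, edgeR adjusted p = 0.00027). The fibrillar genes *Col5a3* and *Col24a1* were not tested for low counts.

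**Figure D3:**
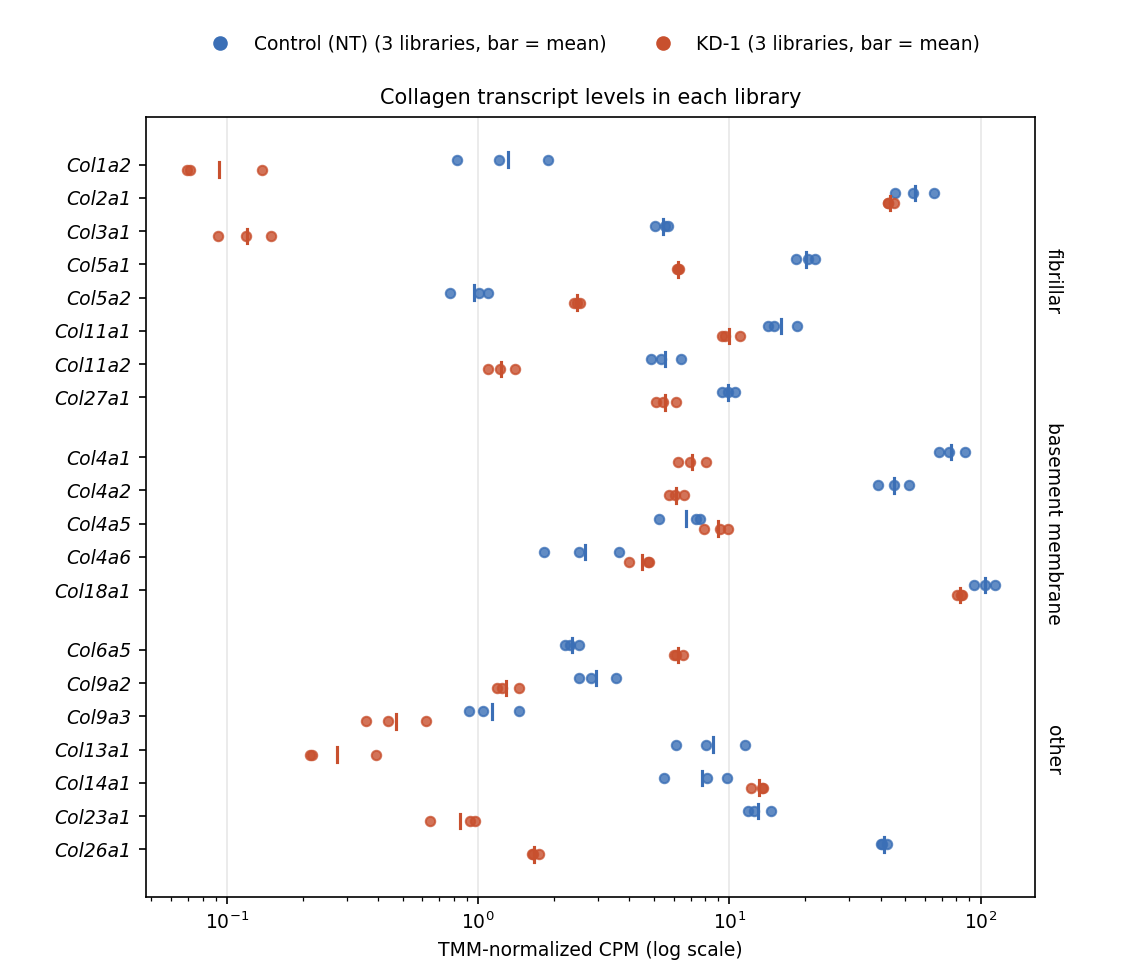
Levels in each library, as TMM-normalized CPM on a log axis, of the 20 collagen genes that were called with a mean of at least 1 CPM in a group or were among the 5 highest per kb, with Control (NT) and KD-1 side by side. *Col3a1*, *Col13a1* and *Col26a1* show the widest gaps, while the groups of *Col2a1* and *Col18a1* lie next to each other.

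Type IV collagen was divided by chain. *Col4a1* (ENSMUSG00000031502, chr8:11248423-11362826), which encodes the main chain of embryonic basement membranes, had 68.1, 86.4 and 74.5 CPM in Control (NT) and 6.25, 8.07 and 6.95 CPM in KD-1. *Col4a2* (ENSMUSG00000031503, chr8:11362471-11499287), its partner in the same molecule, had 39.1, 51.7 and 45.3 CPM in Control (NT) and 6.58, 6.05 and 5.72 CPM in KD-1. Both genes were far lower in all KD-1 libraries. The changes were -3.43 for *Col4a1* (SE 0.12, edgeR adjusted p = 1.2e-07) and -2.90 for *Col4a2* (SE 0.12, edgeR adjusted p = 2.3e-07), or 10.8-fold and 7.46-fold. Their genes lie start to start on chromosome 8 and overlap by 356 bp in the annotation, where reads cannot be assigned without strand.

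The X-linked chains, which join in a molecule of their own found around smooth muscle, skin and some epithelia, did not fall. *Col4a6* (ENSMUSG00000031273, chrX:139948399-140257072) had 2.51, 1.84 and 3.65 CPM in Control (NT) and 3.98, 4.76 and 4.77 CPM in KD-1. It was called higher at 0.73 (SE 0.24, edgeR adjusted p = 0.024), a call that was lost when any of 4 of the 6 libraries was left out (the lowest- or middle-depth Control (NT), or the middle- or highest-depth KD-1), with changes of 0.49 to 0.71. *Col4a5* (ENSMUSG00000031274, chrX:140258354-140472231), 1281 bp away on the opposite strand, had 5.26, 7.34 and 7.62 CPM in Control (NT) and 7.94, 9.17 and 9.90 CPM in KD-1. The lowest KD-1 value was just above the highest Control (NT) value, and the change of 0.40 (95% interval 0.05 to 0.76, edgeR adjusted p = 0.048) stayed under 1.5-fold. Over the 553 genes tested on chromosome X the median log2 fold change was 0.17, with 27.7% called higher.

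The type IV sum was 15.4, 19.8 and 17.6 CPM per kb in Control (NT) and 3.14, 3.52 and 3.41 CPM per kb in KD-1. Within it, *Col4a5* and *Col4a6* together made up 5.68, 5.13 and 7.24% in the Control (NT) libraries, against 43.1, 44.8 and 48.6% in the KD-1 libraries. The ratio of *Col4a1* to *Col4a2* per kb was 1.62 ± 0.0485 in Control (NT) and 1.12 ± 0.190 in KD-1. From the group means with the longest transcript as length, that ratio was 1.72 and 1.18. The share of *Col4a5* and *Col4a6* was then 7.24 and 50.5%. *Col4a3* and *Col4a4*, the chains of mature kidney and lung membranes, were not tested, at no more than 6 and 21 counts in a library.

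*Col18a1* (ENSMUSG00000001435, chr10:76888012-77002390), a basement membrane proteoglycan whose end is released as endostatin, had 93.95, 114 and 104 CPM in Control (NT) and 80.5, 83.2 and 84.4 CPM in KD-1. Every KD-1 library was lower, but the change of -0.33 (95% interval -0.50 to -0.16, edgeR adjusted p = 0.0041) stayed inside the fold threshold. Its relative *Col15a1* had at most 21 counts in a library and was not tested.

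The membrane-anchored collagens, which span the plasma membrane and can be shed, held some of the furthest falls. *Col13a1* (ENSMUSG00000058806, chr10:61674015-61814940), found at cell contacts and neuromuscular junctions, had 6.13, 11.6 and 8.09 CPM in Control (NT) and 0.215, 0.391 and 0.219 CPM in KD-1. *Col23a1* (ENSMUSG00000063564, chr11:51180566-51474745) had 12.5, 11.8 and 14.7 CPM in Control (NT) and 0.930, 0.644 and 0.967 CPM in KD-1. Both were low in all KD-1 libraries, and the middle-depth Control (NT) library was the highest for *Col13a1* and the lowest for *Col23a1*. The changes were -5.01 (SE 0.33, edgeR adjusted p = 3.4e-06) for *Col13a1* and -3.91 (SE 0.18, edgeR adjusted p = 4.3e-07) for *Col23a1*, 32.3-fold and 15.1-fold lower. *Col25a1*, a membrane collagen of neurons and muscle, was not called at 0.26 (95% interval -0.18 to 0.70, edgeR adjusted p = 0.27), and *Col17a1*, of skin hemidesmosomes, was not tested.

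*Col26a1* (ENSMUSG00000004415, chr5:136770613-136912063), a short collagen with an EMI domain, had 40.3, 40.6 and 42.2 CPM in Control (NT) and 1.74, 1.63 and 1.65 CPM in KD-1. The libraries of each group lay close together. Its fall of -4.62 (SE 0.08, edgeR adjusted p = 4.8e-09), or 24.6-fold, was 1 of the 6 over 8-fold. Among the collagens it stood in place 5 per kb in Control (NT) and in place 16 in KD-1, or in places 2 and 12 with the longest transcript as length.

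Fibril-associated collagens, which attach to the surface of fibrils, moved both ways, and their sum was alike in the groups, 3.10 ± 0.123 CPM per kb in Control (NT) and 3.01 ± 0.0795 in KD-1. *Col9a2* (ENSMUSG00000028626, chr4:120896582-120912523), a chain of the type IX collagen that coats type II fibrils, had 2.51, 3.52 and 2.82 CPM in Control (NT) and 1.24, 1.45 and 1.19 CPM in KD-1. *Col9a3* (ENSMUSG00000027570, chr2:180239583-180264063), another chain of that molecule, had 0.916, 1.45 and 1.05 CPM in Control (NT) and 0.620, 0.437 and 0.357 CPM in KD-1. Both were called lower, *Col9a2* at -1.20 (SE 0.20, edgeR adjusted p = 0.00094) and *Col9a3* at -1.30 (SE 0.35, edgeR adjusted p = 0.01), the latter not without the highest-depth KD-1 library (adjusted p = 0.058). *Col9a1*, the remaining chain, was under 1 CPM and not called, at -0.90 (edgeR adjusted p = 0.16), but without the middle-depth Control (NT) library it was called at -1.22 (adjusted p = 0.037).

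*Col14a1* (ENSMUSG00000022371, chr15:55171140-55384199), a fibril-associated collagen of tendon and skin, had 9.74, 5.48 and 8.14 CPM in Control (NT) and 13.6, 12.2 and 13.5 CPM in KD-1. The middle-depth Control (NT) library was the lowest, and the rise of 0.76 (SE 0.18, edgeR adjusted p = 0.0055) was 0.57, under 1.5-fold, without it. The other fibril-associated genes tested, *Col12a1*, *Col16a1*, *Col20a1* and *Col22a1*, were not called, with log2 fold changes of 0.14, 0.16, -0.54 and -0.28. *Col20a1* was called at -0.74 (adjusted p = 0.044) without the lowest-depth Control (NT) library, and *Col19a1* was not tested.

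Of the type VI collagens, which form beaded filaments around cells, *Col6a5* (ENSMUSG00000091345, chr9:105733270-105837858) had 2.22, 2.31 and 2.53 CPM in Control (NT) and 6.51, 6.14 and 5.999 CPM in KD-1. It was higher in every KD-1 library, and its change of 1.39 (SE 0.13, edgeR adjusted p = 3.1e-05), or 2.62-fold, was the largest rise among the collagens called. *Col6a1* and *Col6a2*, whose chains every type VI molecule is known to need, stayed under 1 CPM in all libraries. *Col6a2* was not called at -0.18 (95% interval -1.51 to 1.15, edgeR adjusted p = 0.80), and *Col6a1*, *Col6a3*, *Col6a4* and *Col6a6* were not tested.

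The remaining genes were low. *Col8a2*, a short-chain collagen of the cornea and vessels, was called lower at -1.91 (SE 0.42, edgeR adjusted p = 0.0038), with 0.965, 0.681 and 1.30 CPM in Control (NT) and 0.262, 0.368 and 0.184 CPM in KD-1. *Col7a1*, of the anchoring fibrils under skin, had 1.01, 2.10 and 1.37 CPM in Control (NT) and 1.05, 0.506 and 0.817 CPM in KD-1. These groups overlapped, and its change of -0.93 lay at the threshold (edgeR adjusted p = 0.05) and was called in 5 of the other settings tried, among them without the lowest-depth Control (NT) library (-1.12). *Col10a1*, of hypertrophic cartilage, had 0 counts in all libraries, which allows up to 0.145 CPM in the shallowest library and 0.0345 CPM in the deepest, taking 3 counts as the limit and counting error only. *Col8a1* and *Col28a1* were also not tested, and no gene of the 14 not tested exceeded 29 counts in a library.

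Genes that fold, cut, link, bind and degrade collagen were taken from 8 lists with 60 genes, of which 50 were tested. By the same rule 22 were called lower and 7 higher, against 18.1% lower and 19.7% higher over all genes tested, and 21 were not called. In the endoplasmic reticulum list, 9 of 20 were called lower and 2 higher. *Serpinh1*, the collagen chaperone HSP47, had 334, 410 and 384 CPM in Control (NT) and 70.5, 68.8 and 68.6 CPM in KD-1. *Plod1*, a lysyl hydroxylase, had 60.2, 68.9 and 67.6 CPM in Control (NT) and 5.61, 5.52 and 6.17 CPM in KD-1. Both were lower in all KD-1 libraries, *Serpinh1* by -2.44 (SE 0.08, edgeR adjusted p = 8.8e-08) and *Plod1* by -3.50 (SE 0.09, edgeR adjusted p = 2.5e-08). *P4hb*, a subunit of prolyl hydroxylase, fell by 0.96 on the log2 scale, and the 2 genes called higher, *Colgalt2* and *P4ha3*, had group means under 1 CPM.

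Propeptide removal had 3 genes called lower and 2 higher among 7 tested. *Pcolce*, which enhances the C-propeptide protease, had 8.05, 10.7 and 9.19 CPM in Control (NT) and 1.00, 1.43 and 1.04 CPM in KD-1, a change of -3.03 (SE 0.19, edgeR adjusted p = 2.5e-06). *Tll1*, a protease of the same family as *Bmp1*, had 3.57, 2.13 and 3.19 CPM in Control (NT) and 0.429, 0.253 and 0.299 CPM in KD-1, a change of -3.18 (SE 0.31, edgeR adjusted p = 3.8e-05). Neither gene's groups overlapped. *Bmp1* itself was lower by -1.59, and *Adamts14* (1.76) and *Pcolce2* (1.02) were called higher.

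Among the crosslinking genes, 2 of 4 tested were called lower and none higher. *Loxl2*, a lysyl oxidase that also acts on type IV collagen, had 59.1, 65.5 and 62.2 CPM in Control (NT) and 18.6, 16.3 and 14.8 CPM in KD-1. *Pxdn*, the peroxidase that links type IV networks, had 131, 119 and 136 CPM in Control (NT) and 50.6, 52.2 and 51.4 CPM in KD-1. Both were lower in all KD-1 libraries, at -1.91 (SE 0.09, edgeR adjusted p = 6.9e-07) and -1.32 (SE 0.07, edgeR adjusted p = 7e-07), and the classical enzyme gene *Lox* was not tested for low counts.

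Only 1 of 4 fibril-binding proteoglycan genes was tested. *Fmod*, fibromodulin, was read 241, 477 and 743 times in Control (NT) and 0 times in each KD-1 library. With a mean of 13.1 CPM in Control (NT), it was at least 224-fold lower, taking 3 counts per KD-1 library as the limit, and *Dcn*, *Bgn* and *Lum* stayed under 1 CPM.

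Basement membrane partners of type IV had 2 genes called lower and 1 higher among 4. *Nid1*, nidogen, which ties laminin to type IV collagen, had 8.83, 6.69 and 7.09 CPM in Control (NT) and 17.4, 17.6 and 17.2 CPM in KD-1. *Nid2*, the other nidogen, had 212, 230 and 225 CPM in Control (NT) and 120, 115 and 118 CPM in KD-1. The nidogens thus moved in opposite directions, *Nid1* by 1.22 (SE 0.11, edgeR adjusted p = 2.3e-05) and *Nid2* by -0.92 (SE 0.05, edgeR adjusted p = 2.1e-06). *Hspg2*, perlecan, was lower by -0.64, and *Sparc* was not called at -0.20.

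Of the collagen receptors, 3 of 7 tested were called lower and 1 higher. *Itga1*, the integrin subunit that with *Itgb1* binds type IV collagen, had 1.59, 0.710 and 2.09 CPM in Control (NT) and 9.47, 11.4 and 10.9 CPM in KD-1. *Mrc2*, an endocytic collagen receptor, had 40.6, 51.2 and 49.2 CPM in Control (NT) and 8.09, 6.80 and 6.56 CPM in KD-1. *Itga1* was thus higher in all KD-1 libraries, by 2.81 (SE 0.29, edgeR adjusted p = 5.3e-05), and *Mrc2* lower, by -2.73 (SE 0.12, edgeR adjusted p = 3.4e-07). *Ddr2*, a receptor kinase for fibrillar collagen, and *Itgb1* were lower by -1.26 and -0.69.

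Collagenases and gelatinases had 1 gene called in each direction among 4 tested. *Mmp2*, a gelatinase that cuts type IV collagen, had 1.69, 1.39 and 2.00 CPM in Control (NT) and 3.01, 4.09 and 3.09 CPM in KD-1, a rise of 0.98 (SE 0.21, edgeR adjusted p = 0.0032) without overlap. *Mmp9*, the other gelatinase, was under 1 CPM and called lower at -2.53, and *Mmp1a* and *Mmp8* had 0 counts in all libraries. Among the regulators of cartilage collagens, *Sox9*, a direct activator of *Col2a1*, had 4.77, 6.22 and 4.44 CPM in Control (NT) and 2.91, 2.92 and 2.90 CPM in KD-1. All KD-1 libraries lay below Control (NT), at -0.82 (SE 0.16, edgeR adjusted p = 0.0022), while *Sox5* (0.99, edgeR adjusted p = 0.053) and *Sox6* (0.00) were not called.

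**Figure D4:**
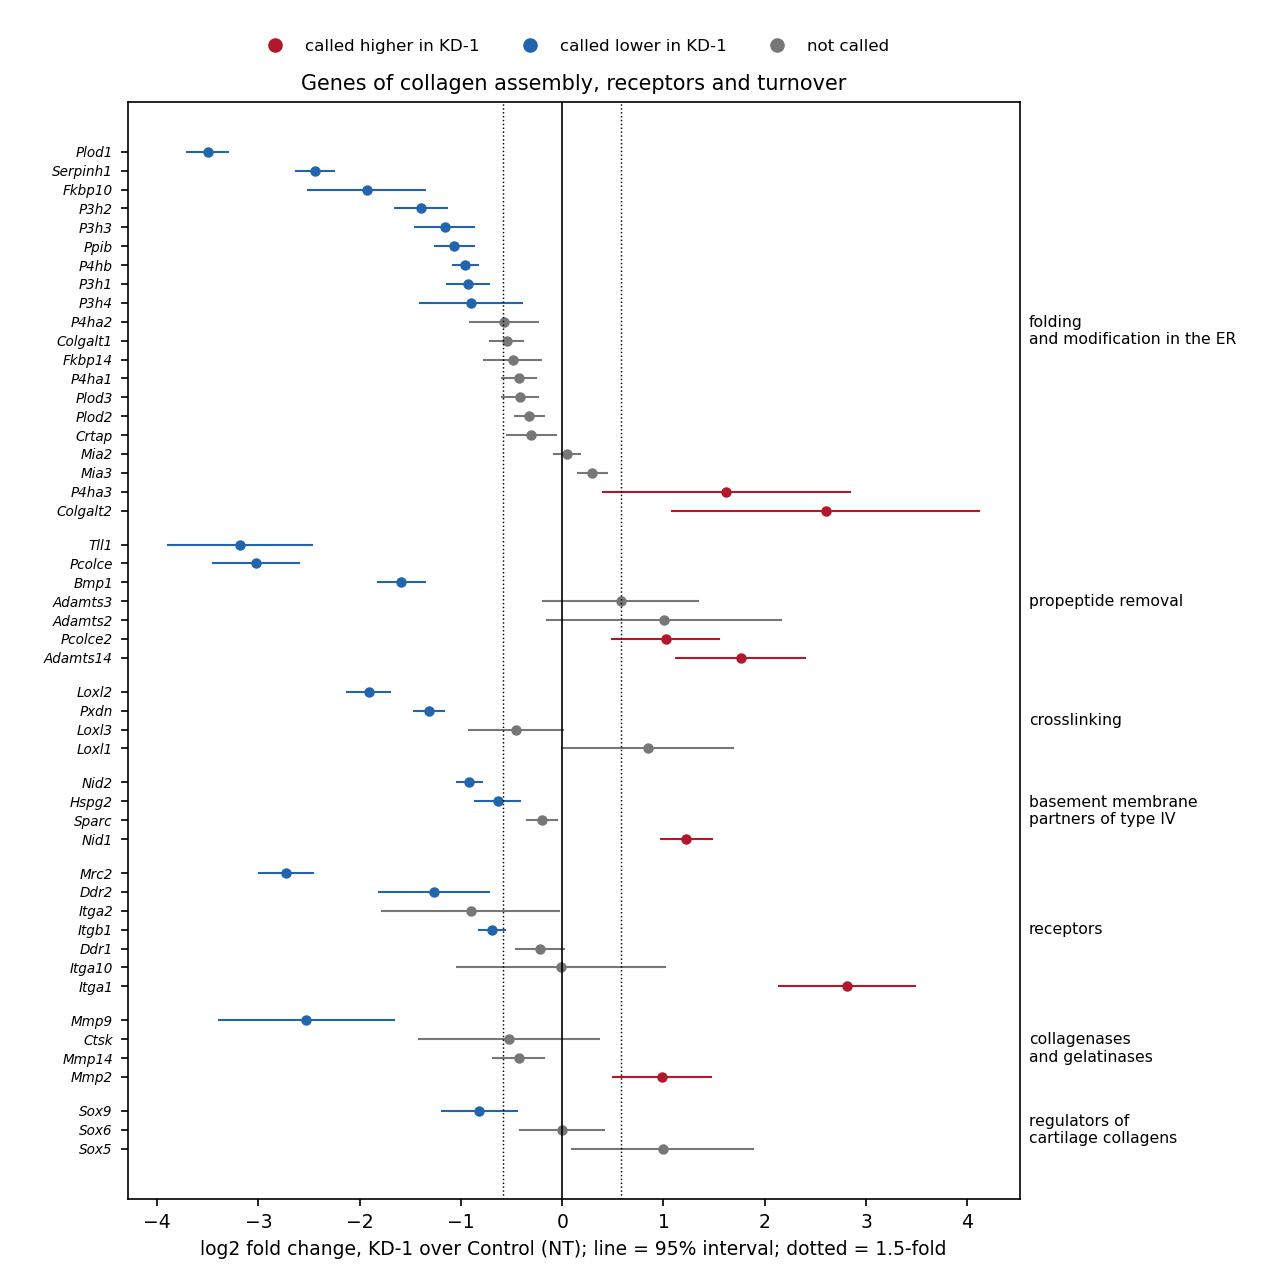
Log2 fold changes, KD-1 over Control (NT), of 49 tested genes that fold, cut, link, bind, sense or degrade collagen, grouped by list, with lines for the 95% interval and colours for the call. Most called points lie left of 0, *Itga1* and *Nid1* lie to the right, and *Fmod* is not drawn because its KD-1 counts are 0.

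Marker lists of cell types that make collagen moved between the groups. Over all genes tested, 18.1% were called lower and 19.7% higher. Somite and sclerotome markers summed to 471 to 508 CPM in Control (NT) and 4.56 to 5.08 CPM in KD-1. All 7 tested of 8 were called lower, and *Nkx3-2* was under 1 CPM in all libraries. Most of the Control (NT) sum came from *Meox1*, with mean levels of 371 and 0.423 CPM. The log2 fold changes ran from -2.76 for *Pax9* to -9.77 for *Meox1*. Parietal and primitive endoderm markers summed to 125 to 154 against 34.6 to 36.8 CPM, with 4 of 6 tested called lower and 2, *Sox7* and *Thbd*, higher, and *Gata6*, *Sox7*, *Sox17* and *Thbd* stayed under 1 CPM. Most of that sum came from *Lama1*, a laminin gene with mean levels of 68.9 and 27.8 CPM, and from *Pdgfra*, with 61.2 and 0.889 CPM, which is also in the somite and sclerotome list. Of 5 endothelium markers, *Pecam1* and *Tek* were called higher and *Kdr* lower, with sums of 16.8 to 18.2 against 33.1 to 35.2 CPM. *Pecam1* alone had mean levels of 14.5 and 29.4 CPM, while *Cdh5*, not tested, had 0.318 and 0.0233 CPM, and *Tie1* was also under 1 CPM. The part of these lists in the collagen results was not tested.

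Notochord markers summed to 5.74 to 9.12 CPM in Control (NT) and 6.76 to 7.63 CPM in KD-1, with 1 of 2 tested called higher. Most of that sum came from *T*, with mean levels of 6.69 and 5.42 CPM, which is also in the list of posterior markers. *Shh* and *Foxa2* stayed under 1 CPM, and *Noto* was at 0 counts throughout. Cartilage markers were near the floor, at 0.772 to 1.42 against 1.24 to 1.58 CPM, with *Acan* called higher and *Hapln1* lower. Feeder fibroblast markers summed to 1.59 to 2.22 against 0.679 to 1.08 CPM, 6 of 7 staying under 1 CPM and the 1 tested not being called. Epithelial markers summed to 5.11 to 7.10 against 2.78 to 3.05 CPM, with 2 of 3 tested called lower, 1 higher and *Krt14* at 0 counts.

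All 4 pluripotency markers were called higher, with sums of 516 to 615 CPM in Control (NT) and 1561 to 1606 CPM in KD-1. Neural markers summed to 34.1 to 37.9 against 132 to 134 CPM, with 3 of 4 called higher. Posterior markers of gastruloids summed to 30.1 to 39.8 against 15.9 to 18.1 CPM, with 2 of 3 tested, *Cdx2* and *Tbx6*, called lower. The sum came mainly from *Cdx2* and from *T*, which was not called. *Tbx6* and *Msgn1* stayed under 1 CPM in all libraries, *Msgn1* at no more than 3 counts. The part of these shifts in the collagen values was likewise not tested.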

How the data were processed

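Whole-gastruloid RNA of 3 Control (NT) and 3 KD-1 libraries (TruSeq kit) was quantified by the authors with Salmon 1.1, after bcl2fastq, against a Gencode annotation whose species series and build are not given in the sources used here. The authors deposited estimated counts (expected counts) per Ensembl gene as whole numbers without normalization, which were used as deposited. How transcripts were summed to genes and whether strand was used are not given either, so overlapping genes may share reads. GENCODE vM39 (GRCm39) supplied names, exon lengths and positions for 35222 of 35565 identifiers.

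Library totals were 20982249, 34694406 and 56674906 counts (Control (NT)) and 41180012, 42407550 and 85561026 (KD-1). A count of 0 allows up to 0.145 CPM in the shallowest library. Such floors cover counting error only. The SE and 95% intervals of fold changes were calculated back from the fold change and the test statistic of the fit. They include the spread between libraries and are approximate, above all for genes with few counts. Same-group libraries differed by more than sampling noise (chi-square per degree of freedom 4.85 to 36.5).

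All genes were tested with edgeR 4.0.16 in R 4.3.3 (filterByExpr, TMM, robust quasi-likelihood fit, condition only, Benjamini-Hochberg adjustment over 15110 genes). Adjusted p-values are from edgeR unless another tool is named. DESeq2 1.42.0, limma-voom 3.58.1, other normalizations, filters and thresholds, and leaving out each library were tried. The tests were also run on simulated counts with 200 changed genes, all changed by the same size. That is far fewer than the 5704 genes called here, so the simulation does not measure the errors of these calls. An exact permutation test of 3 against 3 libraries cannot go below p = 0.1 and was not used.

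Named with values are collagens that were called with a mean of at least 1 CPM in a group, the 5 highest per kb in either group, and, of each pathway list, up to 2 called genes with the largest change and a mean of at least 1 CPM. Further genes are named to account for all members or were chosen after their values were seen. The members and lists were chosen with earlier results of these data known.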

Additional observations from a re-analysis of the deposited data

How the results depend on the processing

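The count of collagens called lower stayed between 12 and 17 under 17 other settings, against 15 as reported. The count called higher, 4 as reported, was 2 with glmTreat, with an absolute log2 fold change over 1, and as the lowest of the fits that left out 1 library (2 to 4). Among other collagens the count called higher was 1 instead of 2 with glmTreat and with the log2 threshold of 1, and 1 to 2 with a library left out. Among basement membrane collagens it was 0 instead of 1 under those 2 thresholds, 2 with no fold threshold, and 0 to 1 with a library left out. Fibrillar collagens called lower numbered 4 instead of 7 when at least 10 counts were required in every library, which removes genes that fell to few counts. Pathway genes called higher numbered 4 instead of 7 with glmTreat. Of 413 recomputed fold changes, 5 changed sign, all of genes not called: *Col6a2* (0.46 without the middle-depth Control (NT) library and 0.03 without the middle-depth KD-1 library, over a range with 1 library left out of -0.51 to 0.46), *Col12a1* (-0.035 without the former, range -0.035 to 0.26) and *Col16a1* (-0.31 without the former and -0.06 without the highest-depth KD-1 library, range -0.31 to 0.75). In every fit that tested them, 14 of the 19 called collagens kept their call. With the longest transcript as length, summed levels were 18.5 and 11.7 CPM per kb (fibrillar, Control (NT) and KD-1), 16.5 (basement membrane, KD-1), and 24.1 and 5.59 (other). No paired analysis was possible because the table's columns do not carry the replicate numbers of the labels. The shallowest library limits genes below about 1 CPM.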

Other observations

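Proteins with a collagen domain but another family name were counted in the same way, from a list of 28 genes chosen with the data known. Of 12 tested, 7 were called lower in KD-1 and 2 higher, against 18.1% and 19.7% of all genes tested. *Colec12*, a scavenger receptor with a collagen-like stalk, had 93.4, 94.6 and 89.2 CPM in Control (NT) and 14.0, 14.7 and 15.8 CPM in KD-1, a change of -2.63 (SE 0.07, edgeR adjusted p = 2.9e-08). *Emilin1*, an elastic fibre glycoprotein, had 9.36, 13.6 and 12.3 CPM in Control (NT) and 0.572, 0.621 and 0.737 CPM in KD-1, a change of -4.17 (SE 0.20, edgeR adjusted p = 5.5e-07). Its relative *Emilin2* had 1.69, 0.651 and 0.596 CPM in Control (NT) and 3.15, 3.33 and 3.32 CPM in KD-1, a rise of 1.86 (SE 0.35, edgeR adjusted p = 0.0017). None of these groups overlapped. The complement genes *C1qa*, *C1qb* and *C1qc* were at 0 counts in all libraries.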
